A study of Rattus norvegicus with 12 samples.

Results

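Genes that carry cholesterol out of cells, out of late endosomes or into and out of lipid droplets were followed in the corpus luteum (CL) of pregnant rats. They were Abca1 and Abcg1, Nr1h2 and Nr1h3, Npc1 and Npc2, Soat1 and Lipe, and Plin2 and Plin3, taken by name as 10 of the 14506 genes with a symbol of their own on the array. All 10 were measured, each by 1 probe set, so 0 members were missing. The animals were pregnant Wistar rats of 4 groups with 3 animals each, and the RNA of 1 animal was hybridised to each of the 12 arrays. AI+E2 rats received anastrozole, an aromatase inhibitor that blocks estradiol synthesis, by mouth at 1 mg/kg body weight from day 12 for 4 days, together with 17β-estradiol (E2) injected under the skin at 10 µg a day. AI rats received the same anastrozole without E2, and VEH rats received the ethanol vehicle over the same 96 h. The CL of these 3 groups were collected on day 16 of pregnancy, and those of the untreated rats on day 12. Values are the deposited log2 intensities, so that a difference of 1 is a doubling.

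A luteal cell makes progesterone from cholesterol and keeps a reserve of it as esters in lipid droplets. Cholesterol taken up with lipoproteins leaves the late endosome through NPC2 and NPC1. SOAT1 esterifies it, hormone-sensitive lipase (LIPE) frees it again, and perilipins such as PLIN2 and PLIN3 coat the droplet. Surplus is sensed as oxysterol by the liver X receptors LXRβ (Nr1h2) and LXRα (Nr1h3), which are known to raise transcription of the exporters ABCA1 and ABCG1, while low sterol in the endoplasmic reticulum releases SREBP2 to switch on the genes of cholesterol synthesis.

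AI treatment lowered Abca1, Npc1 and Plin2 and raised Soat1 against VEH. These were 4 of the 10 members called, where a call is an adjusted p under 0.05 (limma with Benjamini-Hochberg adjustment over all 14506 genes), and 16.9% of all genes were called in this comparison. The median size of the change was 0.24 on the log2 scale over the members and 0.091 over all genes. The members also varied more between animals of a group, with a median residual SD of 0.14 against 0.089 over all genes. Under the methods' t-test with the same adjustment the calls of Npc1 (adjusted p = 0.11) and Plin2 (adjusted p = 0.0534) were lost, and those of Abca1 and Soat1 were not.

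E2 given with AI raised 1 of the 10 members against AI alone, Abca1, where 12.8% of all genes were called. The other 3 genes that AI had moved showed no called difference between AI+E2 and AI. Accordingly, 3 of the 10 members were still called between AI+E2 and VEH, where 13.0% of all genes were: Npc1 and Plin2 were lower and Soat1 higher in AI+E2. The comparisons share the AI or the VEH animals and are not independent of each other. The methods' t-test kept only Soat1 between AI+E2 and VEH, with adjusted p = 0.0936 for Npc1 and 0.0643 for Plin2.

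In VEH rats on day 16, Abca1, Abcg1 and Plin2 were higher than in untreated rats on day 12. These were 3 of the 10 members, where 10.1% of all genes were called. Day of pregnancy and dosing with vehicle cannot be told apart in this comparison, and under the methods' t-test 0 members were called (3 at an unadjusted p under 0.05), with adjusted p = 0.133, 0.301 and 0.254 for Abca1, Abcg1 and Plin2. That test called 57 genes in all here. Against day 12, AI rats were higher in 2 of the 10 members, Nr1h2 and Soat1, where 7.57% of all genes were called. AI+E2 rats were higher than day 12 in 3 of the 10, Abca1, Npc2 and Soat1, where 12.1% of all genes were called. The methods' t-test called 0 members in each of these 2 comparisons, with 2 and 3 at an unadjusted p under 0.05.

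**Figure D1:**
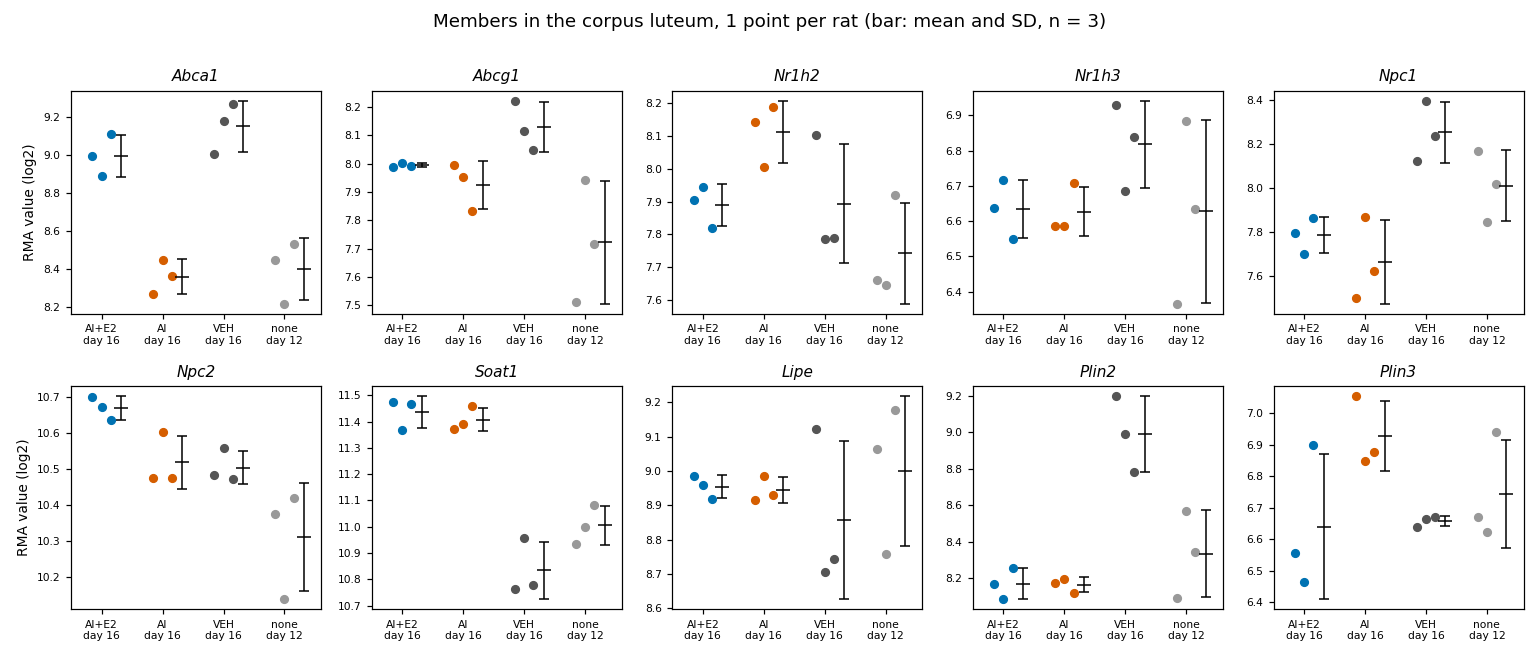
Log2 value of each of the 10 genes (vertical axis, its own range in each panel) in the CL of each rat, by group. Points are the 3 animals of a group and the bar beside them is their mean and SD. Abca1 is low in AI and in untreated day 12 rats only, Plin2 is high in VEH rats only, and Soat1 is highest in the AI+E2 and AI rats.

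Abca1, which encodes the transporter that hands cholesterol to lipid-poor apolipoprotein A-I, was the only member called both between AI and VEH and between AI+E2 and AI. Its values were 8.99, 8.89 and 9.11 in AI+E2 rats, 8.27, 8.45 and 8.36 in AI rats, 9.01, 9.18 and 9.27 in VEH rats, and 8.45, 8.22 and 8.53 on day 12. Every AI animal lay below every AI+E2 and every VEH animal, and the AI and day 12 animals overlapped. Abca1 was 1.73-fold lower in AI than in VEH rats (log2 fold change -0.79, SE 0.091, adjusted p = 1.47e-05). In AI+E2 rats it exceeded the AI level 1.56-fold (0.64, SE 0.091, adjusted p = 0.000177). The value in AI+E2 rats remained 0.16 below that in VEH rats, with a 95% interval of the difference from -0.35 to 0.038 and adjusted p = 0.341. Abca1 was 1.69-fold higher in VEH rats than on day 12 (adjusted p = 6.45e-05) and 1.52-fold above day 12 in AI+E2 rats (adjusted p = 0.000394). Between AI rats and day 12 the difference was -0.039 (95% interval -0.23 to 0.15).

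Abcg1 encodes the transporter that passes cholesterol to mature high-density lipoprotein. Its values were 7.99, 8.00 and 7.99 in AI+E2 rats, 7.99, 7.95 and 7.83 in AI rats, 8.22, 8.11 and 8.05 in VEH rats, and 7.51, 7.94 and 7.72 on day 12. The VEH animals lay above all others, by less than 0.1 at the nearest. Abcg1 was 1.32-fold higher in VEH rats than on day 12 (log2 fold change 0.40, SE 0.089, adjusted p = 0.00859). The difference between AI and VEH was -0.20 (SE 0.089, adjusted p = 0.153) and that between AI+E2 and AI 0.068 (adjusted p = 0.694), neither of them called. The whole 95% interval of that last difference, -0.12 to 0.26, lay below the interval of Abca1 in the same comparison, 0.44 to 0.83.

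The receptors that control both exporters had 1 call between them, that of Nr1h2 in AI rats against day 12. Nr1h2 (LXRβ) read 7.90, 7.95 and 7.82 in AI+E2 rats, 8.14, 8.01 and 8.19 in AI rats, 8.10, 7.79 and 7.79 in VEH rats, and 7.66, 7.65 and 7.92 on day 12. The AI animals lay above those of AI+E2 and day 12, and 1 of the 3 VEH animals lay among them. Nr1h2 was higher in AI rats than on day 12 (0.37, SE 0.093, adjusted p = 0.0232), a call that was lost when any 1 of 4 animals was left out. Those were day 12 rats 1 and 2 (adjusted p = 0.0922 and 0.0736) and AI rats 1 and 3 (0.0919 and 0.0861). The difference between AI and VEH was 0.22 (adjusted p = 0.133), and without VEH rat 1 it was 0.32 and called (adjusted p = 0.0216). Nr1h3 (LXRα) was called in none of the 6 comparisons. Its group means were 6.63 ± 0.083 in AI+E2, 6.63 ± 0.070 in AI, 6.82 ± 0.12 in VEH and 6.63 ± 0.26 on day 12 (SD, n = 3). Its difference between AI and VEH was -0.19, with a 95% interval of -0.41 to 0.032.

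**Figure D2:**
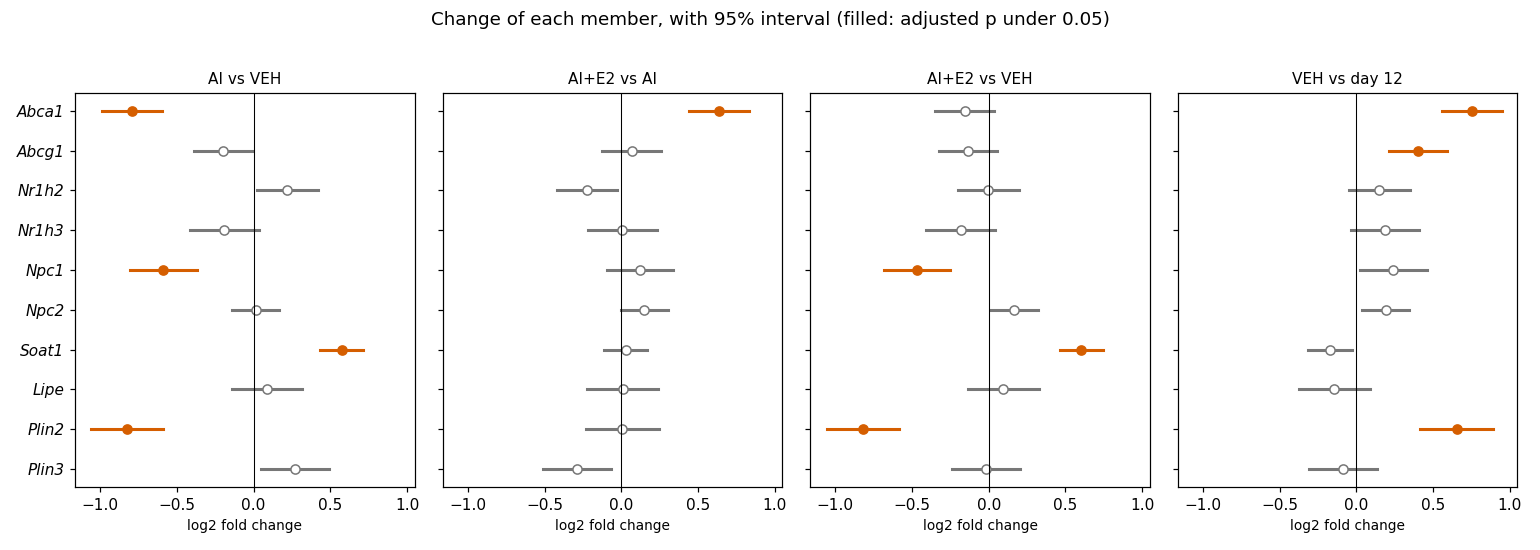
Log2 fold change of each gene (horizontal axis) with its 95% interval in 4 comparisons. Filled points passed the adjusted p of 0.05. In AI vs VEH, Abca1, Npc1 and Plin2 lie to the left of 0 and Soat1 to the right, and in AI+E2 vs AI only Abca1 is filled.

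Npc1 encodes the membrane protein through which cholesterol leaves the late endosome. It read 7.80, 7.70 and 7.86 in AI+E2 rats, 7.50, 7.87 and 7.62 in AI rats, 8.12, 8.40 and 8.24 in VEH rats, and 8.17, 7.84 and 8.02 on day 12. The AI+E2 and AI animals overlapped, and both groups lay below every VEH animal. Npc1 was lower in AI than in VEH rats (log2 fold change -0.59, SE 0.10, adjusted p = 0.000669) and 1.38-fold lower in AI+E2 than in VEH rats (-0.47, SE 0.10, adjusted p = 0.00561). Between AI+E2 and AI it differed by 0.12 (95% interval -0.094 to 0.34, adjusted p = 0.511). The difference between AI and day 12, -0.35, missed the threshold (adjusted p = 0.0514). It passed without D12 rat 2 (adjusted p = 0.0191), AI rat 2 (0.0146), VEH rat 1 (0.0489) or VEH rat 2 (0.0475). It also passed after a further quantile normalization (0.0335), without the dimmest 25% or 50% of genes (0.0394 and 0.0325) and with a trended, robust variance model (0.0447).

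Npc2 encodes the soluble protein that passes cholesterol to NPC1, and it did not share the fall of Npc1. Its values were 10.70, 10.67 and 10.63 in AI+E2 rats, 10.48, 10.60 and 10.47 in AI rats, 10.48, 10.56 and 10.47 in VEH rats, and 10.38, 10.14 and 10.42 on day 12. The AI+E2 animals lay above all others. The only called difference was that between AI+E2 and day 12 (0.36, SE 0.072, adjusted p = 0.0035). Against AI the difference was 0.15 (adjusted p = 0.213) and between AI and VEH 0.014 (95% interval -0.14 to 0.17).

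Soat1, the enzyme that esterifies cholesterol for storage, was the member that rose with AI. Its values were 11.47, 11.37 and 11.47 in AI+E2 rats, 11.37, 11.39 and 11.46 in AI rats, 10.76, 10.96 and 10.78 in VEH rats, and 10.94, 11.00 and 11.08 on day 12. All 6 animals given AI, with or without E2, lay above every VEH and day 12 animal. Soat1 in AI+E2 rats exceeded its VEH level 1.52-fold (log2 fold change 0.60, SE 0.066, adjusted p = 1.68e-05) and 1.49-fold higher in AI than in VEH rats (0.57, SE 0.066, adjusted p = 1.66e-05). AI+E2 and AI differed by 0.030, with a 95% interval of -0.11 to 0.17. Against day 12 Soat1 was higher in AI+E2 (0.43, adjusted p = 0.000445) and in AI rats (0.40, adjusted p = 0.00132). The difference between VEH and day 12 was -0.17 (adjusted p = 0.128). After a further quantile normalization it was -0.25 and called (adjusted p = 0.017).

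Lipe, the lipase that splits stored esters, was called in none of the comparisons. Its values were 8.98, 8.96 and 8.92 in AI+E2 rats, 8.92, 8.99 and 8.93 in AI rats, 9.12, 8.71 and 8.74 in VEH rats, and 9.06, 8.76 and 9.18 on day 12. The VEH and day 12 animals were spread wider than the treated ones, with ranges of 0.42 and 0.42 against 0.066 in AI+E2 and 0.071 in AI. The difference between AI and VEH was 0.087, with a 95% interval of -0.14 to 0.32.

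Plin2, the droplet coat protein found in most cells that store lipid, went the opposite way to Soat1 in AI and AI+E2 rats against VEH. It read 8.17, 8.09 and 8.26 in AI+E2 rats, 8.17, 8.20 and 8.12 in AI rats, 9.20, 8.99 and 8.78 in VEH rats, and 8.09, 8.57 and 8.34 on day 12. The VEH animals lay above every other animal, and the AI+E2, AI and day 12 animals overlapped. Plin2 was 1.77-fold lower in AI than in VEH rats (log2 fold change -0.83, SE 0.11, adjusted p = 7.23e-05) and 1.76-fold lower in AI+E2 than in VEH rats (-0.82, SE 0.11, adjusted p = 0.000124). AI+E2 and AI differed by 0.0069, with a 95% interval of -0.23 to 0.24, so that a return of the size seen for Abca1 lay outside it. Plin2 was 1.57-fold higher in VEH rats than on day 12 (0.65, SE 0.11, adjusted p = 0.00125). Plin3, a coat protein of the same family, was called in none of the comparisons. It read 6.56, 6.46 and 6.90 in AI+E2 rats, 7.05, 6.85 and 6.88 in AI rats, 6.64, 6.66 and 6.67 in VEH rats, and 6.67, 6.62 and 6.94 on day 12. Its difference between AI and VEH was 0.27 (adjusted p = 0.1), and it was called without AI+E2 rat 3 (adjusted p = 0.0396), as was a difference of -0.42 between AI+E2 and AI (adjusted p = 0.0105).

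The promoters of Abca1 and Plin2, the members with the largest falls under AI, and of Soat1, the member that rose, are given below from RefSeq (GRCr8), 250 bases before to 50 after the annotated start, read on the gene's strand. Capitals mark the E-box CACGTG, a motif of basic helix-loop-helix proteins.
Abca1 (chr5:72596424-72596723, strand -): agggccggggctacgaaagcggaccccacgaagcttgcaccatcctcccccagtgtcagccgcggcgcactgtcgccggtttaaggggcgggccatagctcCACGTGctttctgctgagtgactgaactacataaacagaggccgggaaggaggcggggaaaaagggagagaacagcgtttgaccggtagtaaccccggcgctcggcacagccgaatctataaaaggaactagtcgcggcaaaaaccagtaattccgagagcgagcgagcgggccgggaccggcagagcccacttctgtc
Plin2 (chr5:106228969-106229268, strand -): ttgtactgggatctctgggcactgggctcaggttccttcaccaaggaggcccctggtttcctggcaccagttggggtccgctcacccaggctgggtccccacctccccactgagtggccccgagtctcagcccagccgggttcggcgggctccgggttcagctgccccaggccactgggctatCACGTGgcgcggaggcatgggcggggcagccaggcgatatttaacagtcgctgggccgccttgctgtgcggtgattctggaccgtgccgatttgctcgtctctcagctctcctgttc
Soat1 (chr13:71147623-71147922, strand -): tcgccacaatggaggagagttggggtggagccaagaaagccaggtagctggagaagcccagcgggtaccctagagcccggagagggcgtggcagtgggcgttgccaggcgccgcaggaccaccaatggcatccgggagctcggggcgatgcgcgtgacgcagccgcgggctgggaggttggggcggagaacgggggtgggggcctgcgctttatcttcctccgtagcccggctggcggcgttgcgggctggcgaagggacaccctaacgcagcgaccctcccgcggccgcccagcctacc

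Of the 10 members, 8 had such a window and Plin2 had 2, which gave 9 windows; Abcg1 and Lipe had none. Both strands were searched for the nuclear receptor motif AGGTCA, its direct repeat spaced by 4 bases that LXR is known to bind (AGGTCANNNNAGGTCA), an estrogen response element (GGTCANNNTGACC), a sterol response element (TCACNCCAC) and the E-box. Over all 33469 RefSeq promoter windows of the rat these were found in 16.2%, 0.00598%, 0.0269%, 1.12% and 6.42%. The motif AGGTCA forms part of the direct repeat and overlaps the estrogen response element by most of its letters. The E-box lay at -149 from the start in Abca1 and at -67 in Plin2, and AGGTCA lay at +11 on the other strand in Npc2. The window of Soat1, the other window of Plin2, and those of Nr1h2, Nr1h3, Npc1 and Plin3 held none of the 5 motifs in these exact letters. Sites that differ from these letters are missed, so the search cannot show that a window lacks an LXR site. The closest stretch to the direct repeat had 3 mismatches in Abca1, Npc1 and Npc2, and 4 or 5 in the other windows.

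The called changes of other cholesterol efflux genes were smaller than that of Abca1. Of 10 further genes measured, 2 were higher and 1 was lower in AI than in VEH rats, beside 5.91% and 11.0% of all genes. Abca7, a close relative of Abca1 that moves phospholipid, fell in AI against VEH rats (log2 fold change -0.28, adjusted p = 0.00756) and was higher in VEH rats than on day 12 (0.40, adjusted p = 0.00106, or 0.155 by the methods' t-test). Its difference between AI+E2 and AI, 0.18, missed the threshold (adjusted p = 0.108). Scarb1, the receptor that takes up esters from high-density lipoprotein, rose by 0.30 in AI against VEH (adjusted p = 0.00177), and Apoe, a cholesterol acceptor, by 0.43 (adjusted p = 0.0207). Apoe read 10.35, 10.27 and 9.96 in AI rats against 9.44, 9.96 and 9.91 in VEH rats, and without VEH rat 1 the difference was 0.26 (adjusted p = 0.088). Its call was also lost without AI rat 1 or AI rat 2. Between AI+E2 and AI 0 of the 10 were called by limma (2 at an unadjusted p under 0.05) and 0 by the methods' t-test, against 12.8% of all genes by limma. Between AI and VEH the methods' t-test called 0 of these 10 genes, and of the lists that follow 1 of 7 LXR partners and targets, 0 of 15 late endosome genes, 0 of 6 ester genes and 3 of 17 droplet genes.

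Of 7 measured partners and targets of LXR other than the members, 2 were called between AI and VEH, where 16.9% of all genes were, and 2 between AI+E2 and AI, where 12.8% were, 1 in each direction each time. Lpcat3, which builds polyunsaturated phospholipids, had the pattern of Abca1 at a smaller size. It was lower in AI than in VEH rats (-0.30, adjusted p = 0.00217), higher in AI+E2 than in AI rats (0.24, adjusted p = 0.0135) and higher in VEH rats than on day 12 (0.37, adjusted p = 0.000809). The call between AI+E2 and AI was lost without AI rat 1, AI rat 3 or AI+E2 rat 1, and all 3 calls were lost under the methods' t-test (adjusted p = 0.0742, 0.1 and 0.0881). Smpdl3a, an acid sphingomyelinase-like phosphodiesterase described as an LXR target in human macrophages, went the other way. It read 9.70, 9.59 and 9.71 in AI+E2 rats, 9.98, 10.12 and 10.03 in AI rats and 9.35, 9.37 and 9.36 in VEH rats, with no overlap between the 3 groups. It was 1.61-fold higher in AI than in VEH (adjusted p = 3.6e-06) and 1.30-fold lower in AI+E2 than in AI (adjusted p = 0.00143, or 0.0522 by the methods' t-test). The median change of the list was -0.040 between AI and VEH, beside 0.013 over all genes. Ncor1 of this list was lower in VEH rats than on day 12 (-0.24, adjusted p = 0.0255, or 0.126 by the methods' t-test). That call was lost without D12 rat 2 or 3 or VEH rat 1 or 3.

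Among 15 measured genes of the late endosome and of sterol transport, 2 were higher and 3 lower in AI than in VEH rats, beside 5.91% and 11.0% of all genes. The 2 became 1 without VEH rat 1, AI rat 1 or AI rat 2, and with the arrays set to 1 median. The 3 that fell were Scarb2, a receptor of the lysosomal membrane (-0.61, adjusted p = 2.81e-05), Lamp1, a main glycoprotein of that membrane (-0.36, adjusted p = 0.000512), and Scp2, a sterol carrier (-0.34, adjusted p = 0.00085). Lamp2 went the other way and rose by 0.23 in AI against VEH (adjusted p = 0.0219). Scarb2 read 8.80, 8.75 and 8.90 in AI+E2 rats, 8.43, 8.63 and 8.51 in AI rats, and 8.98, 9.18 and 9.25 in VEH rats, so that the AI+E2 animals lay between the other two groups. The difference between AI+E2 and AI was 0.29 (adjusted p = 0.0161) for Scarb2, 0.30 (adjusted p = 0.00323) for Scp2 and 0.091 (adjusted p = 0.388) for Lamp1. Stard4, a carrier of cholesterol in the cytosol that is itself a target of SREBP2, rose by 0.72 in AI against VEH (adjusted p = 2.96e-05) and fell by 0.49 in AI+E2 against AI (adjusted p = 0.00143, or 0.137 by the methods' t-test).

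Against AI alone, AI+E2 raised 5 and lowered 2 of these 15 genes, beside 8.65% and 4.13% of all genes, and the methods' t-test called 2 of them. Gramd1a, which moves cholesterol between the plasma membrane and the endoplasmic reticulum, rose 1.55-fold (0.63, adjusted p = 6.13e-05). Its 3 AI+E2 values, 8.64, 8.50 and 8.64, lay above every other animal of the series. Between AI and VEH Gramd1a differed by -0.088 (adjusted p = 0.529). Without AI rat 1, AI+E2 rat 1 or AI+E2 rat 3 only 2 of the 5 rises were called. Stard3, which tethers late endosomes, fell by 0.36 in AI+E2 against AI (adjusted p = 0.00124) and was 0.47 lower in AI+E2 than in VEH rats (adjusted p = 0.000126).

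Of 6 measured genes of ester storage and hydrolysis other than Soat1 and Lipe, 0 were called between AI and VEH by limma, 0 by the methods' t-test and 0 at an unadjusted p under 0.05 by limma, while 2 were higher in AI+E2 than in AI rats. Of all genes, limma called 16.9% between AI and VEH and 8.65% as higher in AI+E2 than in AI. Lipa, the acid lipase of the lysosome, read 10.16, 10.09 and 10.24 in AI+E2 rats, 9.73, 9.83 and 9.70 in AI rats, and 9.80, 9.65 and 9.75 in VEH rats. Nceh1, a neutral cholesterol ester hydrolase, read 9.23, 9.15 and 9.23 in AI+E2 rats, 8.83, 8.86 and 8.83 in AI rats, and 8.89, 8.71 and 8.68 in VEH rats. For both enzymes every AI+E2 animal lay above every AI and VEH animal. Lipa in AI+E2 rats exceeded its AI level 1.33-fold (adjusted p = 0.00145) and Nceh1 1.29-fold (adjusted p = 0.0016). Their differences between AI and VEH were 0.022 and 0.082, neither of them called.

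Of 17 further lipid droplet genes measured, AI raised 2 and lowered 3 against VEH, beside 5.91% and 11.0% of all genes, and AI+E2 raised 2 and lowered 1 against AI, beside 8.65% and 4.13%. Abhd5, the co-activator of adipose triglyceride lipase, moved in the same directions as Abca1. It read 9.40, 9.32 and 9.39 in AI+E2 rats, 8.09, 8.23 and 7.93 in AI rats, 8.99, 8.97 and 8.95 in VEH rats, and 8.57, 8.63 and 8.71 on day 12. No animal of 1 group overlapped with another group. Abhd5 was 1.85-fold lower in AI than in VEH rats (adjusted p = 3.67e-07), exceeded its AI level 2.44-fold in AI+E2 rats (adjusted p = 1.48e-08) and so stood 0.40 above VEH in AI+E2 (adjusted p = 0.00127). Mgll, which splits monoglycerides, fell by 0.62 in AI against VEH (adjusted p = 6.39e-06) and was 0.25 higher in AI+E2 than in AI (adjusted p = 0.0191). That last call was lost without AI rat 1, AI rat 3 or AI+E2 rat 1. Lpin1, a phosphatidate phosphatase of triglyceride synthesis, read 6.54, 6.67 and 6.64 in AI+E2 rats, 7.76, 7.80 and 7.25 in AI rats, and 6.39, 6.25 and 6.35 in VEH rats. It was 2.42-fold higher in AI than in VEH (adjusted p = 2.08e-06) and 1.99-fold lower in AI+E2 than in AI (adjusted p = 3.98e-05, or 0.071 by the methods' t-test). Agpat2, the other gene that AI raised, was 0.39 higher in AI than in VEH rats (adjusted p = 0.00408). Its difference between AI+E2 and AI, 0.22, was not called (adjusted p = 0.117). Dgat1, the last enzyme of triglyceride synthesis, was lower than in VEH rats in AI (-0.40, adjusted p = 0.0105) and in AI+E2 rats (-0.55, adjusted p = 0.0015). Dgat1 was also 0.39 higher in VEH rats than on day 12 (adjusted p = 0.0218). Without VEH rat 1, which read 8.45 against 8.04 and 7.99 in the other VEH rats, that difference was 0.24 (adjusted p = 0.0665), and the call was also lost without D12 rat 1 or D12 rat 2. Plin1 and Plin5, the other perilipins measured, were called in none of the 6 comparisons.

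**Figure D3:**
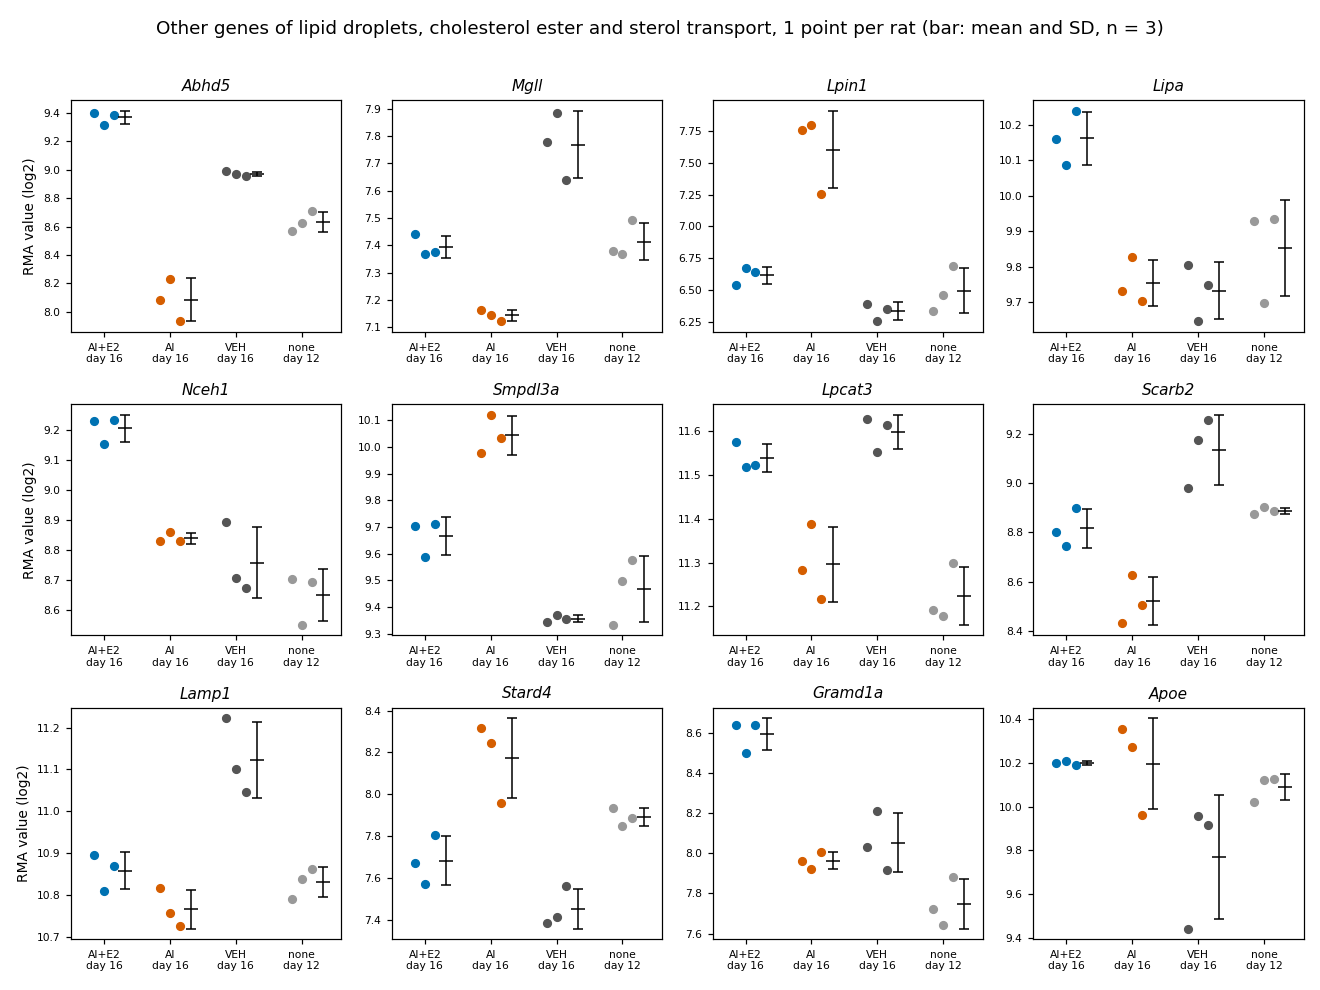
Log2 values of 12 other genes of lipid droplets, cholesterol esters and sterol transport (vertical axis, its own range in each panel) in each rat, by group, with mean and SD of the 3 animals. Abhd5 is lowest in AI and highest in AI+E2 rats, Lpin1 is high in AI rats only, and Lipa, Nceh1 and Gramd1a are highest in AI+E2 rats.

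The targets of SREBP2 moved in the opposite direction to Abca1 in AI against VEH, AI+E2 against AI and VEH against day 12. The part of sterol levels in these changes was not tested. All 13 measured targets were higher in AI than in VEH rats, by a median of 1.94. In AI+E2 rats all 13 fell against AI, by a median of 1.16 on the log2 scale, and 12 of the 13 were lower in VEH rats than on day 12. Of all genes, limma called 5.91%, 4.13% and 3.23% in these directions, and the methods' t-test called 11, 12 and 6 of the 13 targets. Cyp51 read 10.36, 10.34 and 10.43 in AI+E2 rats, 11.94, 12.01 and 11.80 in AI rats, 8.70, 8.60 and 8.82 in VEH rats, and 11.06, 10.90 and 11.19 on day 12. The AI+E2 animals thus lay between VEH and AI, and 9 of the 13 targets remained higher in AI+E2 than in VEH rats while 2 were lower, or 1 without AI+E2 rat 1 or 2 or VEH rat 1 or 3. Between AI+E2 and VEH limma called 6.11% of all genes as higher and 6.90% as lower, and the methods' t-test called 8 of the 13 targets.

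The tissue label was checked against marker genes. Star, Cyp11a1, Lhcgr and Scarb1, which luteal cells express, averaged 12.7, 12.8, 12.5 and 12.7 over the 12 arrays, where the median gene averaged 6.87, while Adipoq and Fabp4 of fat averaged 5.66 and 4.93. These were the brightest of the luteal and the dimmest of the fat markers. The other luteal markers, Hsd3b2, Akr1c3, Prlr and Fdx1, averaged 7.57, 8.68, 10.5 and 10.8. Of the fat markers, Cd36 (7.87), Pparg (7.12) and Retn (7.12) lay above the median gene and the others below it. Probe sets differ in brightness, so these levels are a rough guide. The array reads whole tissue, in which fewer cells of a type and less RNA per cell cannot be told apart. Endothelial markers moved with Plin2, while Abcg1 shared as a call only the higher level in VEH rats than on day 12. Of 10 endothelial markers measured, 7 were lower in AI+E2 than in VEH, 8 lower in AI than in VEH and 9 higher in VEH than on day 12. Between AI+E2 and AI 0 were called by limma, with 3 at an unadjusted p under 0.05, and 0 by the methods' t-test, which called 6 between AI+E2 and VEH, 0 between AI and VEH and 0 between VEH and day 12. Of all genes, limma called 6.90% as lower in AI+E2 than in VEH, 11.0% as lower in AI than in VEH and 6.91% as higher in VEH than on day 12. Their mean level was 8.72 to 8.78 in AI+E2 rats, 8.60 to 8.82 in AI rats, 9.14 to 9.17 in VEH rats and 8.68 to 8.87 on day 12. Their part in the changes of Plin2, Abcg1 and Npc1 was not tested.

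Macrophages also carry Abca1, Plin2 and Lipa. Of their 15 markers, AI+E2 rats had 5 above and 0 below the VEH level, 4 were higher and 0 lower in AI than in VEH rats, and between AI+E2 and AI 1 was higher and 1 lower. Of all genes, 6.11% were higher in AI+E2 and 5.91% higher in AI than in VEH, and the methods' t-test called 3 and 0 of the 15 markers. The 4 became 2 without AI rat 3. The 5 became 8 without D12 rat 2 and 3 without VEH rat 2, AI+E2 rat 1 or AI+E2 rat 3. The mean level was 8.62 to 8.67 in AI+E2 rats, 8.47 to 8.64 in AI rats, 8.33 to 8.44 in VEH rats and 8.29 to 8.43 on day 12. The part of macrophages in the levels of Abca1, Plin2, Lipa, Nceh1 and Npc2 was not tested. The 8 luteal markers moved with Soat1 in part, with 4 higher in AI+E2 than in VEH rats, and 6 higher and 1 lower in AI than in VEH rats, of which the methods' t-test called 2 and 1 in all. Their mean level was 11.36 to 11.38 in AI+E2 rats, 10.97 to 11.11 in AI rats, 10.53 to 10.63 in VEH rats and 11.08 to 11.14 on day 12, and their part in the rise of Soat1 was not tested. Of 9 smooth muscle markers 2 were lower in AI than in VEH rats, or 5 without VEH rat 3 and 1 without D12 rat 1, VEH rat 1 or 2, AI rat 1 or 3, or any AI+E2 rat, and 5 were higher in VEH than on day 12. Of all genes, limma called 11.0% and 6.91% in these directions, and the methods' t-test called 0 and 1 of the 9 markers. The part of smooth muscle in the changes of the members was not tested. Of the 10 fat markers 1, Cd36, was lower in AI than in VEH rats, a call lost without AI rat 1, and their mean level was 6.33 to 6.46 over all animals. Haemoglobin genes were lower in AI+E2 than in AI rats, Hbb by 1.04 (adjusted p = 0.00353), with a mean of the 4 red blood cell markers of 7.40 to 7.48 in AI+E2 and 7.98 to 8.25 in AI rats, and their part in the changes between those groups was not tested.

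**Figure D4:**
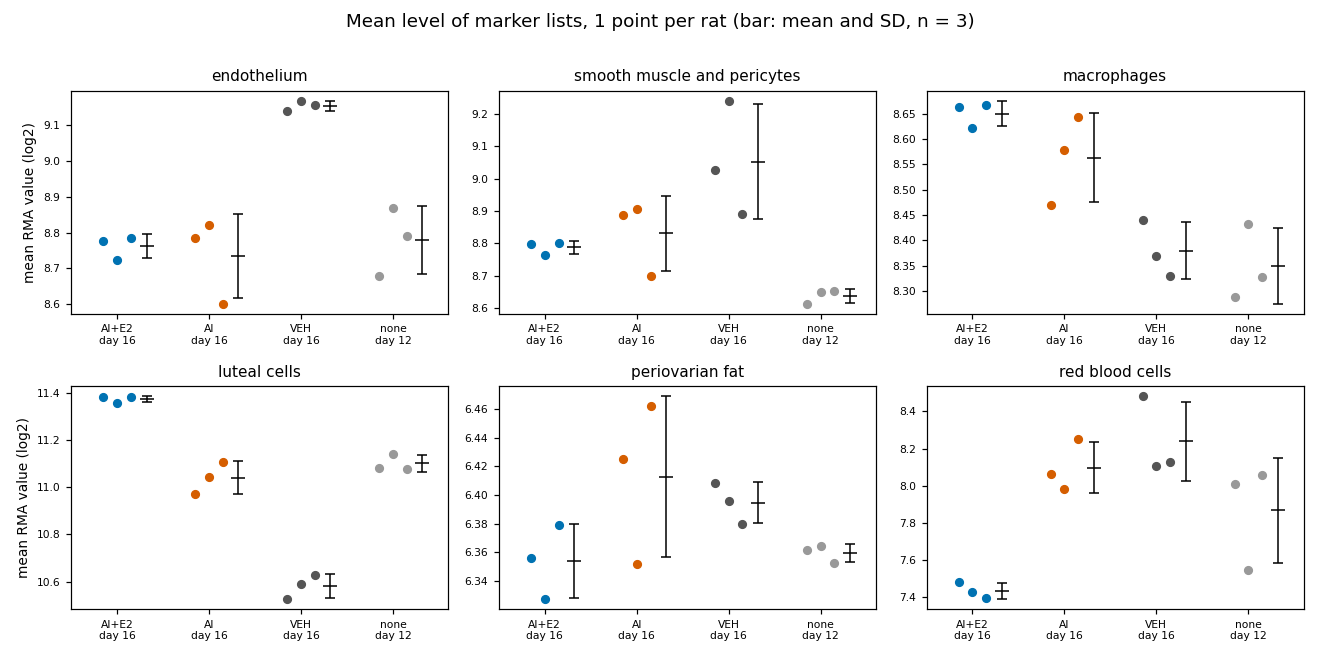
Mean log2 level of 6 marker lists (vertical axis, its own range in each panel) in each rat, by group, with mean and SD of the 3 animals. The endothelial mean lies at 9.14 to 9.17 in VEH rats and at 8.60 to 8.87 in all others, and the luteal mean is lowest in VEH rats at 10.53 to 10.63.

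The genes whose values over the 12 arrays ran most like those of a called member were found by Pearson correlation, given as a description, since all points share the same 4 groups. Cers4, a ceramide synthase (r = 0.98), Chn2 (0.97) and Ssbp3 (0.97) were most like Abca1. Fdx1, the ferredoxin that passes electrons to the enzyme that makes pregnenolone, was most like Soat1 (r = 0.95), followed by Mob4 and Kcnh1 (0.95 each). Mbp (0.96), Ifi30 (0.95) and Mal2 (0.95) were most like Plin2. For Abcg1 these were Dlg4 (0.93), Ptn (0.92) and the endothelial cadherin Cdh5 (0.92), for Npc1 Chek1 (0.94), Lmo7 and Rab1a (0.92 each), for Npc2 Mdk (0.96), Plbd2 (0.96) and Cers5 (0.94), and for Nr1h2 Kdm4b (0.95), Rpusd2 (0.92) and Nppc (0.90).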

How the data were processed

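Luteal RNA of 3 rats a group was hybridised to Affymetrix Rat Gene 1.0 ST arrays, 1 rat to each of the 12. RMA normalization in R 2.12.2, per the submitters' processing notes, gave the log2 values of 29214 probe sets that the authors deposited. RMA equalises the distributions of the arrays and can compress large differences. Not given in the sources used here: which arrays were normalized together, and any filter on dim probe sets. The array medians lay between 6.51 and 6.56, 0 values were missing and 0 pairs of arrays were identical. The number of arrays limits the precision.

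The platform annotation paired 15310 probe sets with 1 gene symbol, 323 with more than 1 and 13581 with none; 15279 were found in the RefSeq gene table. For 527 genes with more than 1 probe set, the one of highest mean was used. All 14506 genes entered 1 limma 3.58.1 fit (lmFit, eBayes, R 4.3.3) of the 4 groups with no covariate, with Benjamini-Hochberg adjustment, tested first on simulated data. Intervals are 95% moderated intervals from this fit. An exact permutation test of 3 against 3 animals cannot go below p = 0.1, so none was used.

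The members and lists were chosen with earlier results of these data known. The text names all members and the 3 genes most correlated with each called member. From each pathway list it names some, not all, of the up to 3 genes of smallest p in AI vs VEH, AI+E2 vs AI and VEH vs D12. Scp2, Lamp2, Dgat1 and Agpat2 between AI and VEH, marker genes and the perilipins named as not called were chosen after their values were seen. Hsd3b2 and Akr1c3 stood for the listed Hsd3b1 and Akr1c18 through RefSeq synonyms. Listed genes without a probe set of their own were not analysed here. Alternatives were the samples fitted, probe set choice, scaling, dim-gene filters, variance model, the t-test of the supplementary legend, a fold minimum of 1.5, a replicate block and leaving out each array.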

Additional observations from a re-analysis of the deposited data

How the results depend on the processing

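Of 1368 member values under the alternatives, 0 reversed a call, 1326 kept their side of the threshold, 23 lost and 19 gained a call. Of the 1326, 30 changed sign with no call under either setting. The methods' t-test called 663 genes in AI vs VEH, 758 in AI+E2 vs AI, 564 in AI+E2 vs VEH, 57 in VEH vs D12, 45 in AI vs D12 and 362 in AI+E2 vs D12, with 2 members in AI vs VEH, 1 in AI+E2 vs VEH and 0 in each comparison with D12. A fold minimum of 1.5 left 529, 385, 384, 238, 171 and 323 genes in the same order, with 0 members in AI vs D12 and 1 in AI+E2 vs D12. With only the compared groups in the fit, 910 genes were called in VEH vs D12, and 2 members in AI+E2 vs AI, the second being Nr1h2 (-0.22, adjusted p = 0.0428). Leaving out each array in turn gave 1817 to 2628 genes in AI vs VEH, 1245 to 2073 in AI+E2 vs AI, 1252 to 2094 in AI+E2 vs VEH, 998 to 1515 in VEH vs D12, 654 to 1099 in AI vs D12 and 1123 to 1859 in AI+E2 vs D12. The lowest were without AI rat 1 in AI vs D12 and without AI+E2 rat 1 in AI+E2 vs VEH and AI+E2 vs D12. Members called ranged over 4 to 5 in AI vs VEH, 1 to 2 in AI+E2 vs AI, 3 to 3 in AI+E2 vs VEH, 3 to 4 in VEH vs D12, 1 to 3 in AI vs D12 and 3 to 4 in AI+E2 vs D12. The causes of these shifts, the smaller number of samples among them, were not tested. Same-numbered rats of different groups deviated together in 4 of 18 pairs (correlation over 0.1, range -0.49 to 0.34), and rats of other numbers in 8 of 36 (range -0.39 to 0.46). The numbers were not taken as pairs, and with 3 animals a group these correlations cannot show whether same-numbered rats shared a batch. The replicate block called 2226 genes in AI vs VEH, 1625 in AI+E2 vs AI and 1265 in VEH vs D12, and changed no member's call.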
